A study of Mus musculus with 14 samples.

Results

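Genes that copy DNA were followed in the uterus of early pregnant mice as a list of 46 DNA replication and S-phase genes. The list holds the replicative helicase, the proteins that load and start it, the polymerases, the sliding clamp and its loader, the enzymes that finish new strands and supply nucleotides, and the regulators of S-phase entry. A gene belongs to it when its symbol is the only one that the platform annotation gives for a probe set. Of the 46 genes, 45 had such a probe set, against 18193 genes in the whole table. Chaf1a had none. Of the 45, 42 had a mean signal above the limit used for testing, and Cdc6, E2f1 and E2f8 lay below it. No cut-off on these measurements defines the list, but it was drawn up with earlier results of the series known and is not independent of them.

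Total RNA of dissected uterus at day 3.5 of gestation, before the embryo implants, was measured on 14 Affymetrix arrays. All females carried the C57BL/6 background and ate the same chow. Some were wild type, and the others, Folr4-/-, carried the mutated allele of Folr4 (now Izumo1r) on both chromosomes. Each female was injected with saline or with folinic acid, a reduced folate. Per the labels, folinic acid was given into the peritoneum at 12.5 mg/kg in 2 injections, 10 and 3 days before mating. There were 4 arrays of wild type with saline, 3 of wild type with folinic acid, 3 of mutant with saline and 4 of mutant with folinic acid. In their titles, wild-type saline replicates 2 and 3 share a number, as do wild-type folinic acid replicates 1 and 2, and the labels do not say what it marks. Each array was counted as 1 sample, so n overstates the independent samples if those arrays share an animal or litter. What the mutation removes and in which cells it acts is not given in the sources used here. The design asks whether the genotype changes how the uterus responds to the supplement.

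The values are linear signals that the authors scaled to the same trimmed mean on every array, and the array medians lay between 129 and 157. Actin gave 3-prime to 5-prime signal ratios, which are higher where RNA is more degraded, of 1.54 to 3.64, with the highest in wild-type saline replicate 3. The array weight estimated by limma was lowest for that same array, at 0.345, and next lowest for mutant folinic acid replicate 2, at 0.412. Izumo1r was below the signal limit in both genotypes, with 13.5 to 72.4 in the wild-type and 6.14 to 70.2 in the mutant arrays. It therefore does not check the genotype labels, and the place of its probe set relative to the mutation is not given in the sources used here. Of the markers fixed for the uterus, all 11 stromal, all 8 smooth muscle and 10 of 10 measured epithelial genes were above the limit. All 8 measured markers of the preimplantation embryo were below it.

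A cell that commits to S phase first loads the MCM2-7 ring at origins with ORC, Cdc6 and Cdt1, then turns it into a running helicase with Cdc45 and the GINS proteins. Polymerases alpha, delta and epsilon copy the strands, PCNA holds them on DNA, and Fen1 and Lig1 join the lagging-strand pieces. Most of these genes are known targets of the E2F factors, which release them in a wave at the end of G1. In the mouse uterus this wave is known to move between layers before implantation. Estrogen drives epithelial proliferation first, and progesterone then halts it there while stromal cells begin to divide.

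The E2F letters searched for were TTTCCCGC, TTTCGCGC, TTTGCCGC and TTTGGCGC, on both strands, in windows from 250 bases before to 50 bases after each gene start (RefSeq, GRCm38.p6). Of the 46 genes, 36 had a window. The 10 without one were Prim2, Gins2, Gmnn, Mcm4, Gins1, Ccne2, Tipin, Gins4, Pole and Rfc2. The E2F letters stood in 13 of the 36 genes (36.11%), against 2.605% of all 27025 genes with a window. In 8 of the 13 the first match lay before the start. Those 8 are printed with up to 20 flanking bases, 5′ to 3′ on the strand of the gene, because such letters are a feature of many listed genes that the choice of the list did not use. Capitals mark the E2F letters, and in Mcm6 and Mcm5 a match on each strand overlaps the other.

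Mcm5: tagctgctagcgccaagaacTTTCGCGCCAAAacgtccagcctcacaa
Mcm6: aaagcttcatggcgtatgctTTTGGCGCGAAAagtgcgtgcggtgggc
Mcm7: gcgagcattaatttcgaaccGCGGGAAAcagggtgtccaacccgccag
Orc1: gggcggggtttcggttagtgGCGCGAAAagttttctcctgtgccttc
Cdc6: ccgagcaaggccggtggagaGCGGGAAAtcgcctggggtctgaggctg
Pola1: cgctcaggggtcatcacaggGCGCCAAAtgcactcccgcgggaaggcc
Rfc3: ccggaagtgacgtcgcacgcTTTCGCGCtc
Uhrf1: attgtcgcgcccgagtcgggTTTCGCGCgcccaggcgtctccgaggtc

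In GRCm38.p6 these stretches lie at chr8:75109336-75109383 (Mcm5, plus strand), chr1:128359788-128359835 (Mcm6, minus strand) and chr5:138172021-138172068 (Mcm7, minus strand). Orc1 has its stretch at chr4:108579407-108579453 and Cdc6 at chr11:98907993-98908040, both on the plus strand. Pola1 follows at chrX:93632266-93632313 and Rfc3 at chr5:151651209-151651238, both on the minus strand, and Uhrf1 at chr17:56304108-56304155 on the plus strand. In Mcm3, Cdt1, Pold1, Pole2 and Lig1 the first match began at or after the start. The letters CCAAT stood in 22 of the 36 genes (61.11%), against 41.06% of all genes. The cell cycle element TTTGAA, known from genes of mitosis, stood in 5 of the 36 (13.89%), against 20.23% of all genes and 28 of 37 mitosis and spindle genes (75.68%). A match is a run of letters and not a shown site, and no match says only that these letters are not in this window.

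**Figure D1:**
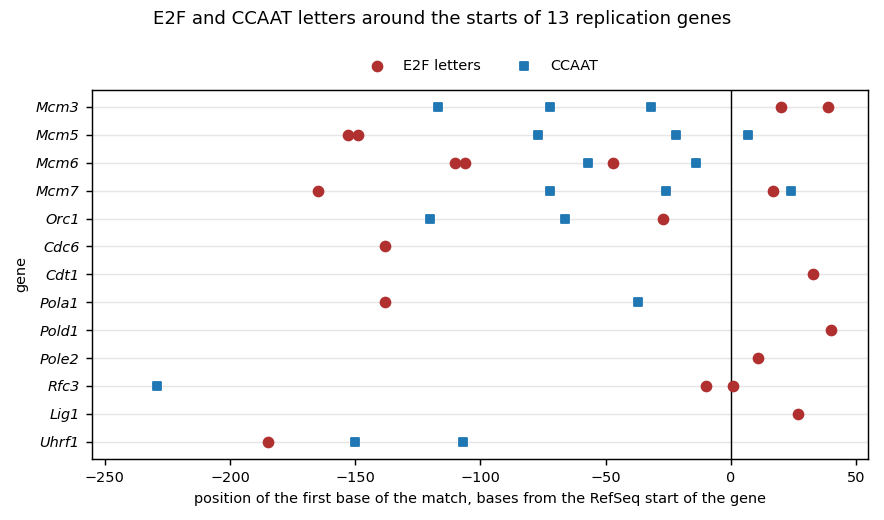
Positions of the E2F letters (circles) and of CCAAT (squares), as the first base of each match in bases from the RefSeq start, for the 13 genes with E2F letters. In 8 of the 13 genes the first circle lies before the start, and in 5 it lies at or after it.

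The clearest feature of the list was a lower level in mutant than in wild-type uteri among the females given folinic acid, seen in nearly every member. Of 42 members, 41 had a lower mean in the mutants, with Orc6 as the exception, and the median log2 difference was -0.44. Across all 22519 probe sets tested, 52.7% were lower and the median was -0.01. The members with the largest differences were Tk1 at -1.22, Pole at -1.03, Uhrf1 at -0.98, Cdc45 at -0.90 and Orc1 at -0.89. Dimmer members tended to differ more: over the 42, the rank correlation (Spearman) of mean signal with this difference was 0.55. Tk1, Pole, Cdc45 and Orc1 had mean signals of 155 to 190, near the limit of 134. The order of the members therefore follows signal in part, and the reason was not tested. No member passed the test across all probe sets: limma called 0 of 42 at an adjusted p of 0.05, where it called 0.00444% of all probe sets, and the smallest adjusted p of a member was 0.999. In whole tissue, fewer dividing cells and less RNA per cell cannot be told apart.

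**Figure D2:**
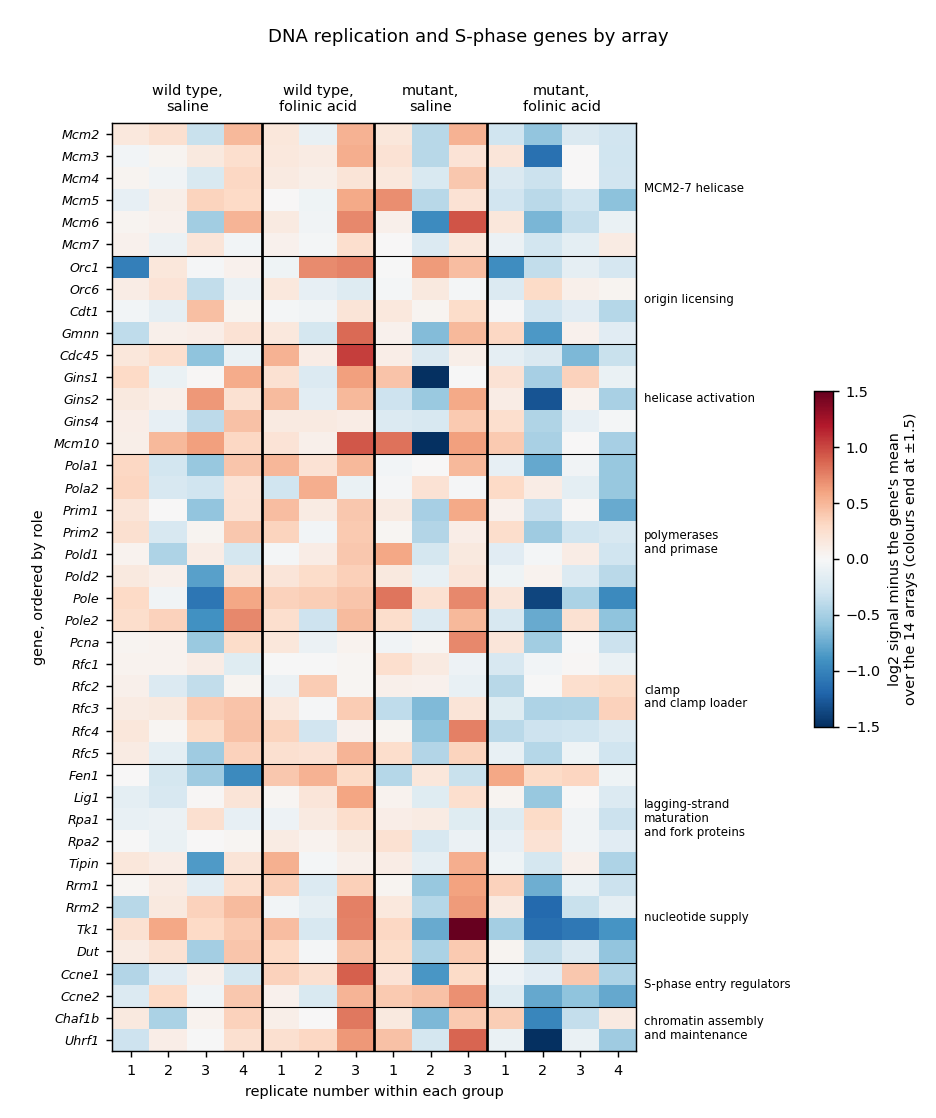
Log2 signal of each of the 42 genes above the signal limit (rows, by role) in each of the 14 arrays (columns, by group), minus the gene's own mean over the arrays. Red is above and blue below that mean, and the mutant folinic acid arrays are mostly blue: 6 of 42 genes in replicate 2 and 5 of 42 in replicate 4 are above their own mean.

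At an unadjusted p under 0.05, 13 members were lower in the mutants after folinic acid and 0 were higher, where 2.30% of all probe sets were lower and 1.51% higher. In 12 members every mutant array lay below every wild-type array, which was so for 3.05% of all probe sets. These 12 were Mcm2, Mcm4, Mcm5, Orc1, Cdc45, Pola1, Prim1, Pold2, Pole, Rfc5, Tk1 and Uhrf1. The 13 below the unadjusted limit included 10 of them, without Mcm4 and Pold2 and with Mcm3, Lig1 and Ccne2. With the 3 dim members counted from a fit without the signal limit, 44 of 45 were lower. With arrays that share a title number averaged to 1 sample, 41 of 42 were lower, the median was -0.55 and 12 passed the unadjusted limit. Of all 22519 probe sets 750 passed it in that fit. With the actin ratio as a covariate 41 of 42 were lower, with a median of -0.42.

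The mean over the 42 members, each centred on its own 14-array mean, placed the arrays on 1 log2 scale. It was 0.03, 0.01, -0.14 and 0.21 in the wild-type saline arrays and 0.19, 0.05 and 0.43 after folinic acid. In mutant arrays it was 0.15, -0.36 and 0.37 after saline and -0.03, -0.47, -0.12 and -0.31 after folinic acid. All 4 supplemented mutants lay below all 3 supplemented wild types, and the 3 mutant saline arrays spread over most of the range of the others. Group means were 0.03 ± 0.14 (SD, n = 4), 0.22 ± 0.19 (n = 3), 0.05 ± 0.38 (n = 3) and -0.23 ± 0.20 (n = 4) in that order. The lowest array was mutant folinic acid replicate 2 and the highest wild-type folinic acid replicate 3. The difference leaned on both. Without wild-type folinic acid replicate 3, 5 of 42 members were below the unadjusted limit. Without mutant folinic acid replicate 2 there were 7, and without both arrays 1. Over all 22519 probe sets the count was 692, 1681 and 1427 in these settings, against 858 with every array. Without the mutant array, and without both, it rose over all probe sets while it fell among the members. Without both arrays, 39 of 42 members were still lower and the median difference was -0.21.

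**Figure D3:**
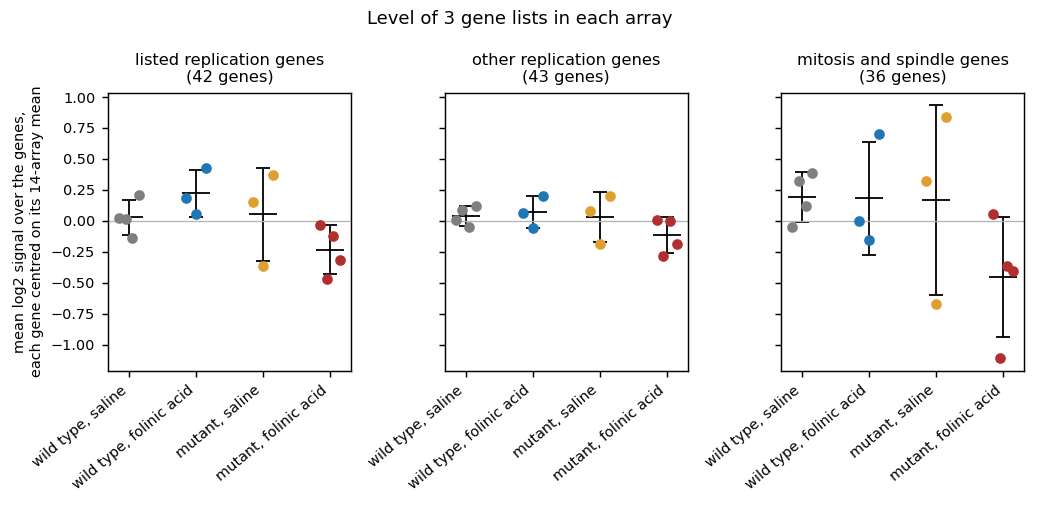
Mean log2 signal over the genes of a list in each array (points), each gene centred on its 14-array mean, with the group mean and SD as a bar and whiskers. In the left panel the 4 mutant folinic acid arrays lie between -0.47 and -0.03, below the 3 wild-type folinic acid arrays, and the mutant saline arrays are spread widest.

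The MCM2-7 helicase is the ring that unwinds DNA ahead of the fork, and all 6 of its subunits had a lower mean in mutants than in wild type after folinic acid, with a median of -0.53. In wild-type uteri Mcm5 read 1291, 1497, 1777 and 1736 after saline and 1416, 1345 and 2093 after folinic acid. In mutant uteri Mcm5 read 2289, 1057 and 1646 after saline and 1160.0, 1069, 1150.3 and 918 after folinic acid. The supplemented mutants all lay under the supplemented wild types, but mutant saline replicate 2 was as low as they were. The difference between genotypes after folinic acid was -0.57 ± 0.23 (log2 ± SE of the fit), and that between supplemented and saline mutants -0.57 ± 0.23 (limma, adjusted p = 0.324).

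Mcm7, another subunit, differed least of the 6. In wild-type uteri Mcm7 read 4558, 4078, 4936 and 4227 after saline and 4538, 4265 and 5172 after folinic acid. In mutant uteri Mcm7 read 4360.0, 3773 and 4881 after saline and 4086, 3577, 3935 and 4720.2 after folinic acid. The 4 groups overlapped, and the difference between genotypes after folinic acid was -0.19 ± 0.14. The other subunits had differences of -0.54 (Mcm2), -0.58 (Mcm3), -0.34 (Mcm4) and -0.51 (Mcm6) in that comparison. Under saline the 6 lay between -0.10 and 0.09, 3 on either side of 0.

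Origin licensing puts the ring on DNA. Orc1, the largest subunit of the origin recognition complex, had 1 of the widest contrasts of the list. In wild-type uteri Orc1 read 75.8, 174, 153 and 162 after saline and 148, 254 and 259.8 after folinic acid. In mutant uteri Orc1 read 154, 241 and 213 after saline and 81.3, 119.8, 141 and 129.8 after folinic acid. Supplemented mutants lay below both the supplemented wild types and the saline mutants with no overlap, while wild-type saline replicate 1 was lower than any of them. The genotype difference was 0.57 ± 0.33 under saline and -0.89 ± 0.33 under folinic acid. The interaction, the second minus the first, was -1.46 ± 0.46 (limma, adjusted p = 0.905). Without wild-type saline replicate 1 it was -1.18.

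Cdt1 brings the ring to the origin, and geminin, encoded by Gmnn, holds Cdt1 back once S phase has begun. In wild-type uteri Cdt1 read 1330.4, 1241, 1862 and 1407 after saline and 1335, 1316 and 1566 after folinic acid. In mutant uteri Cdt1 read 1519, 1400.4 and 1653 after saline and 1345, 1123, 1213 and 1018 after folinic acid. Within the mutants the supplemented arrays all lay below the saline arrays, with a difference of -0.38 ± 0.16 (limma, adjusted p = 0.335), and the 2 genotypes overlapped after folinic acid (-0.26 ± 0.16). Gmnn differed by -0.41 ± 0.32 between genotypes after folinic acid and overlapped in every comparison. Orc6, another ORC subunit, was the only measured member that was higher in the supplemented mutants, at 0.11 ± 0.17. Cdc6, the loading factor below the signal limit, ran from 48.0 to 125 in supplemented mutants and 71.3 to 246 in supplemented wild types.

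Cdc45 and the GINS complex turn the loaded ring into a moving helicase, and Mcm10 assists this step. In wild-type uteri Cdc45 read 180.3, 191, 105 and 150.4 after saline and 232, 173 and 331 after folinic acid. In mutant uteri Cdc45 read 173, 138 and 170.4 after saline and 147, 139, 101 and 127 after folinic acid. Supplemented wild types were the high group here: all 3 exceeded the supplemented mutants, and replicates 1 and 3 exceeded every array of the other groups. The difference between genotypes after folinic acid was -0.90 ± 0.27, and that of folinic acid in wild type 0.63 ± 0.27 (limma, adjusted p = 1.0). Without wild-type folinic acid replicate 3 the former was -0.65.

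Gins4, a GINS subunit, differed little. In wild-type uteri Gins4 read 670.2, 575, 476 and 854 after saline and 691, 688 and 677 after folinic acid. In mutant uteri Gins4 read 545, 532 and 823 after saline and 745, 459.7, 575 and 616 after folinic acid. The groups overlapped, with -0.22 ± 0.22 between genotypes after folinic acid. Gins1 and Gins2 were at -0.22 ± 0.41 and -0.67 ± 0.35. Mcm10 was at -0.55 ± 0.74, the widest error of the 42 members, and mutant saline replicate 2 read 12.0 where its 2 group mates read 247 and 215. That array was also the lowest of all 14 in Gins1, at 60.3.

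All 8 polymerase and primase genes had lower means in mutants than in wild types after folinic acid (median -0.45). All 8 also had higher means after folinic acid than after saline in wild type (median 0.34). Over these 8 genes the mean centred log2 level in wild type was 0.23, -0.11, -0.51 and 0.31 after saline. After folinic acid it was 0.22, 0.16 and 0.35, so the groups overlapped, and saline replicate 3 was the lowest. Pole encodes the catalytic subunit of polymerase epsilon, which extends the leading strand. In wild-type uteri Pole read 193, 151, 74.1 and 235 after saline and 200.1, 203 and 209 after folinic acid. In mutant uteri Pole read 274, 184 and 259 after saline and 178, 60.3, 114 and 81.1 after folinic acid. Supplemented mutants were the low group, below both the supplemented wild types and the saline mutants with no overlap. Wild-type saline replicates 2 and 3 lay within their range. The difference was -1.03 ± 0.39 between genotypes after folinic acid, a factor of 2.05, and 0.65 ± 0.39 under saline. The interaction of -1.69 ± 0.55 was the largest of the list (limma, adjusted p = 0.905). Over the other settings it ran from -1.96 to -1.25, the latter with array weights. Without wild-type saline replicate 3 the Pole difference under saline was 0.31.

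Pola1 is the catalytic subunit of polymerase alpha, which with primase starts each new strand. In wild-type uteri Pola1 read 471, 314, 255 and 507 after saline and 536, 441 and 532 after folinic acid. In mutant uteri Pola1 read 368, 380.0 and 532 after saline and 348, 223, 366 and 256 after folinic acid. The supplemented mutants were below both the supplemented wild types and the saline mutants, the latter by a narrow gap, and wild-type saline arrays covered both levels. The difference between genotypes after folinic acid was -0.78 ± 0.26. The primase subunits Prim1 and Prim2 were at -0.58 ± 0.27 and -0.43 ± 0.22, and the accessory subunit Pola2 at -0.12 ± 0.24.

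Pold2, a subunit of polymerase delta, differed less than Pole and Pola1 in its mean. In wild-type uteri Pold2 read 785, 747, 402 and 809 after saline and 802, 858 and 908 after folinic acid. In mutant uteri Pold2 read 783, 656 and 803 after saline and 680.0, 733, 613 and 535 after folinic acid. The 3 supplemented wild types lay just above the 4 supplemented mutants, and wild-type saline replicate 3 stood apart below all other arrays. The genotype difference after folinic acid was -0.43 ± 0.22. Pold1 and Pole2 were at -0.26 ± 0.21 and -0.48 ± 0.35, with overlapping groups. The other probe set of Pold1 above the limit gave -0.65.

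All 6 genes of the clamp and its loader had lower means in mutants after folinic acid, with a median of -0.28. Pcna is the sliding clamp. In wild-type uteri Pcna read 5165, 5212, 3422 and 6094 after saline and 5655, 4708 and 5222 after folinic acid. In mutant uteri Pcna read 4831, 5129 and 8246 after saline and 5707, 3503, 4976 and 4024 after folinic acid. The groups overlapped, and the genotype difference after folinic acid was -0.21 ± 0.23.

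Rfc5 and Rfc3 are small subunits of the loader that opens the clamp. In wild-type uteri Rfc5 read 616, 512, 392 and 719 after saline and 669, 658 and 809.9 after folinic acid. In mutant uteri Rfc5 read 681, 417 and 713 after saline and 523, 423, 539.9 and 459 after folinic acid. All supplemented mutants lay below all supplemented wild types, at -0.55 ± 0.22. Rfc3 was the 1 member below an unadjusted p of 0.05 for the genotype under saline. In wild-type uteri Rfc3 read 339, 343, 405 and 418 after saline and 347, 308 and 405 after folinic acid. In mutant uteri Rfc3 read 238, 196 and 354 after saline and 273, 226, 226 and 395 after folinic acid. The difference between genotypes under saline was -0.56 ± 0.24 (limma, adjusted p = 1.0), with mutant saline replicate 3 inside the wild-type range. Its second probe set above the limit gave 0.26 in the same comparison, so the 2 probe sets of Rfc3 disagree in sign. Rfc1, Rfc2 and Rfc4 were at -0.09, -0.08 and -0.35 for the genotype after folinic acid. Their other probe sets above the limit gave -0.14 and -0.45 for Rfc1, -0.61 and -0.35 for Rfc2, and -0.45 for Rfc4.

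Fen1, the flap nuclease that trims lagging-strand pieces, was 1 of 7 members with a higher mean in supplemented than in saline mutants. In wild-type uteri Fen1 read 1555, 1288, 1069.7 and 800.1 after saline and 2049, 2221 and 1893 after folinic acid. In mutant uteri Fen1 read 1156, 1741 and 1231 after saline and 2321, 1899, 1939.6 and 1487 after folinic acid. Supplemented arrays were the high ones in both genotypes, without overlap in wild type and with overlap in the mutants. The difference of folinic acid was 0.84 ± 0.22 in wild type, a factor of 1.79 (limma, adjusted p = 1.0), and 0.48 ± 0.22 in the mutants (adjusted p = 0.373). Its other probe set above the limit gave 0.28 and -0.56 for the same differences, and -0.66 between genotypes after folinic acid where the first gave -0.12. The direction of Fen1 in the mutants therefore depends on the probe set.

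Lig1, the ligase that seals those pieces, follows in the same role. In wild-type uteri Lig1 read 657, 615, 739 and 832 after saline and 746, 827 and 1096 after folinic acid. In mutant uteri Lig1 read 757, 645 and 865 after saline and 748, 490.0, 726 and 631 after folinic acid. Mutant folinic acid replicate 1 just reached the supplemented wild-type range, and the difference was -0.46 ± 0.19. It was -0.17 without the highest and the lowest array of the list.

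Rpa1, the large subunit of the complex that coats single strands, was nearly level. In wild-type uteri Rpa1 read 4187, 4263, 5365 and 4169 after saline and 4301, 4973 and 5429.8 after folinic acid. In mutant uteri Rpa1 read 4871, 4947 and 3991 after saline and 3953, 5524, 4386 and 3619.6 after folinic acid. The groups overlapped, with -0.18 ± 0.16 between genotypes after folinic acid. Rpa2 was at -0.14 ± 0.15 and Tipin, a fork protection factor, at -0.37 ± 0.26.

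Nucleotide supply held the largest single difference. Tk1, the cytosolic thymidine kinase that salvages thymidine in S phase, was low in all 4 supplemented mutants. In wild-type uteri Tk1 read 223, 283, 233 and 248 after saline and 262, 161 and 316 after folinic acid. In mutant uteri Tk1 read 235, 112 and 569 after saline and 133, 86.7, 89.9 and 103 after folinic acid. Every wild-type array lay above every supplemented mutant, and the saline mutants ran from within their range to the highest array of all. The difference between genotypes after folinic acid was -1.22 ± 0.41, a factor of 2.34. Within the mutants it was -1.28 ± 0.41 (limma, adjusted p = 0.231), -0.68 without mutant saline replicate 3 and -1.85 without mutant saline replicate 2.

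Rrm1 and Rrm2 form ribonucleotide reductase, which makes deoxynucleotides, and Dut removes dUTP. In wild-type uteri Rrm1 read 1044, 1114, 921 and 1222 after saline and 1309, 889 and 1309 after folinic acid. In mutant uteri Rrm1 read 1052, 689 and 1549.5 after saline and 1303, 615, 947 and 820.3 after folinic acid. Mutant folinic acid replicate 2 was the lowest of all arrays and replicate 1 lay with the wild types. The difference was -0.37 ± 0.27 for Rrm1, -0.57 ± 0.33 for Rrm2 and -0.51 ± 0.25 for Dut, all with overlapping groups.

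The E-type cyclins switch on Cdk2 at the start of S phase. In wild-type uteri Ccne2 read 117, 166, 129 and 178 after saline and 140.3, 115 and 192 after folinic acid. In mutant uteri Ccne2 read 177, 182 and 216 after saline and 118, 79.1, 88.7 and 79.2 after folinic acid. Saline mutants and supplemented mutants were well apart, and wild-type arrays lay between and across them. The difference of folinic acid in the mutants, -1.09 ± 0.26, had the smallest adjusted p of the list in any comparison (0.132, limma). Over the other settings tried that p ran from 0.0574 to 0.350, so none of them brought it past the threshold. Between genotypes after folinic acid it was -0.70 ± 0.26, and the interaction was -1.09 ± 0.36 (adjusted p = 0.905).

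Ccne1 followed another order through the probe set used. In wild-type uteri Ccne1 read 179.6, 215, 257 and 203 after saline and 309, 286 and 455 after folinic acid. In mutant uteri Ccne1 read 281, 133 and 296 after saline and 232, 217, 321 and 177 after folinic acid. Supplemented wild types lay above saline wild types with no overlap (0.69 ± 0.29; limma, adjusted p = 1.0), whereas the mutants overlapped (0.05 ± 0.29). The other probe set of Ccne1, itself below the signal limit, gave 0.82 and -0.89 for these differences in the fit without that limit. Between genotypes after folinic acid the probe set used gave -0.57 and the other -0.95. E2f1, an activating E2F, and E2f8, a repressing one, were below the signal limit. E2f1 read 92.1 to 136 in supplemented mutants and 155 to 166 in supplemented wild types, and E2f8 8.42 to 208 and 113 to 247.

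Uhrf1 guides maintenance methylation to newly copied DNA, and Chaf1b is part of the chromatin assembly factor that follows the fork. In wild-type uteri Uhrf1 read 366, 484, 451 and 532 after saline and 536, 563 and 712 after folinic acid. In mutant uteri Uhrf1 read 615, 376 and 830.5 after saline and 424, 153, 422 and 313 after folinic acid. Supplemented wild types lay above saline wild types by a narrow gap and above all supplemented mutants by a wide one. The difference between genotypes after folinic acid was -0.98 ± 0.33, and -0.52 without the highest and the lowest array of the list. Chaf1b was at -0.51 ± 0.35, with overlapping groups.

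**Figure D4:**
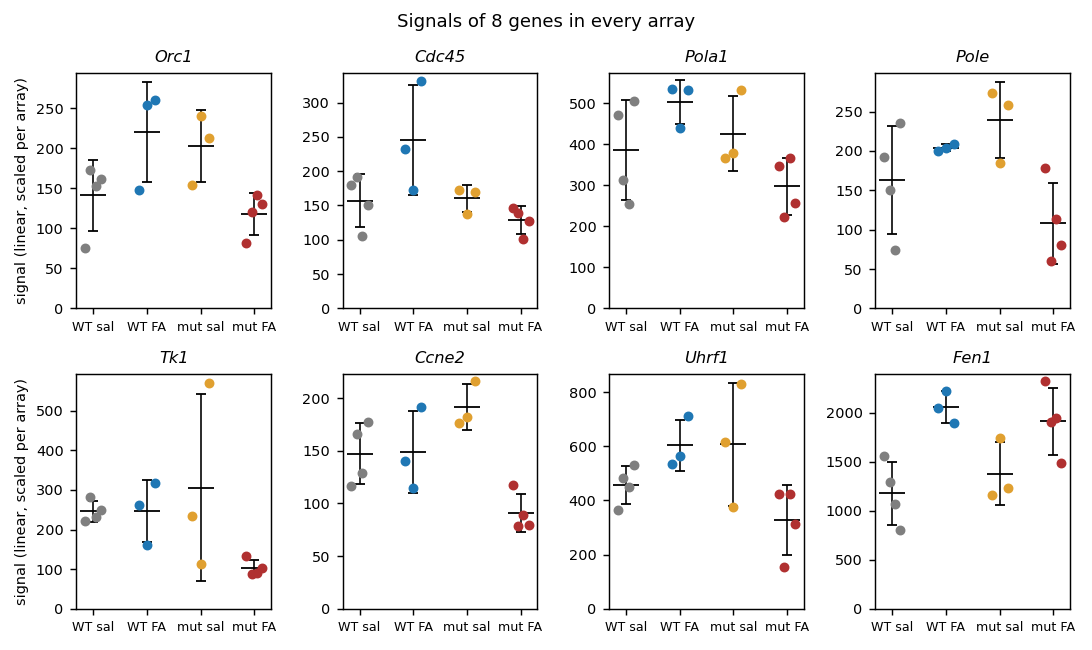
Linear signal of 8 genes in every array (points) by group, with the group mean and SD as a bar and whiskers; sal is saline, FA folinic acid, WT wild type and mut mutant. Supplemented mutants are the low group in Orc1, Pola1, Pole, Tk1, Ccne2 and Uhrf1, supplemented wild types the high group in Cdc45, and Fen1 is high in both supplemented groups.

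In females given saline the members lay on both sides of 0. Under saline 26 members had a higher and 16 a lower mean in the mutants, with a median of 0.06 against -0.02 over all probe sets. Limma called 0 of 42 (0.00444% of all probe sets), and at an unadjusted p under 0.05 there were 0 higher and 1 lower, where 1.30% and 1.81% of all probe sets were. The largest differences were -1.09 ± 0.74 for Mcm10, 0.65 ± 0.39 for Pole and -0.65 ± 0.41 for Gins1. No member had groups that did not overlap. The split of signs rested on single arrays and on the scaling: 5 members were lower without mutant saline replicate 2, 8 without wild-type saline replicate 4, 24 without mutant saline replicate 3 or without wild-type saline replicate 3, and 10 after quantile normalization.

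In wild type, folinic acid went with slightly higher means. Of 42 members 35 were higher and 7 lower, with a median of 0.12 against 0.01 over all probe sets. Limma called 0 of 42, and 0% of all probe sets. At an unadjusted p under 0.05, 3 members were higher (Fen1, Ccne1 and Cdc45) and 0 lower, where 1.19% and 1.52% of all probe sets were. In 4 members, Fen1, Rpa2, Ccne1 and Uhrf1, the supplemented arrays all lay above the saline arrays, which was so for 2.40% of all probe sets. Without wild-type folinic acid replicate 3, 15 members were lower and 1 passed the unadjusted limit, as did 774 of all 22519 probe sets. Without wild-type folinic acid replicate 2, 3 members were lower, and without wild-type saline replicate 3, 12 were.

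In the mutants folinic acid went with lower means. Of 42 members 35 were lower and 7 higher, with a median of -0.27 against 0.01 over all probe sets. Limma called 0 of 42 and 0% of all probe sets. At an unadjusted p under 0.05, 7 members were lower (Mcm5, Orc1, Cdt1, Pole, Tk1, Ccne2 and Uhrf1) and 1 higher (Fen1), where 6.75% and 6.07% of all probe sets were. In 5 members, Orc1, Cdt1, Pola1, Pole and Ccne2, the supplemented arrays all lay below the saline arrays, against 5.69% of all probe sets. Mutant saline replicate 2 worked against this difference and replicate 3 for it: the 8 members past the unadjusted limit became 17 without replicate 2 and 2 without replicate 3. Over all 22519 probe sets the count moved otherwise, from 2887 to 2135 without replicate 2 and to 2615 without replicate 3.

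The interaction asks whether the 2 genotypes differed in their response. It was negative for 38 of 42 members and positive for 4, with a median of -0.48 against 0.01 over all probe sets. Limma called 0 of 42, 0% of all probe sets, and the smallest adjusted p of a member was 0.905. At an unadjusted p under 0.05, 7 members were negative (Orc1, Cdc45, Pola1, Pole, Tk1, Ccne2 and Uhrf1) and 0 positive, where 2.64% and 2.26% of all probe sets were. Without mutant saline replicate 2 there were 17 in either direction, and without the highest and the lowest array of the list 3, with a median of -0.25. Over all 22519 probe sets the count went from 1104 to 986 in the first setting and to 1842 in the second. These comparisons share their arrays, so their values are not separate evidence of each other.

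**Figure D5:**
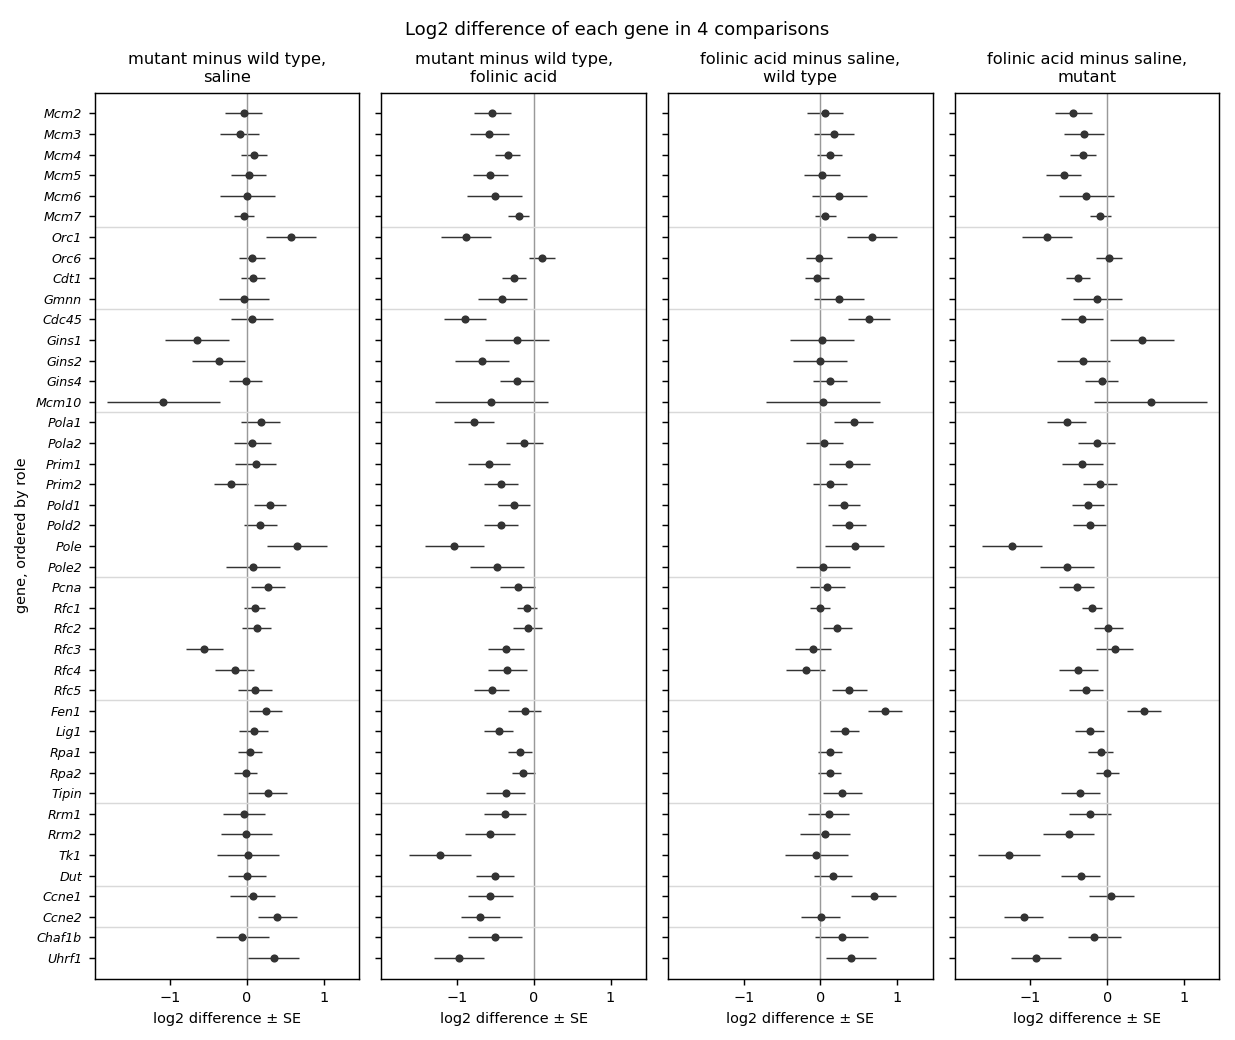
Log2 difference of each gene above the signal limit (rows, by role) in 4 comparisons, as points with the standard error of the fit. In the second panel 41 of 42 points lie left of 0, while in the first they lie on both sides.

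The measured members with and without E2F letters near the start had close medians for the difference between genotypes after folinic acid, -0.49 (n = 12) and -0.47 (n = 20).

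A second look at the same genes came from their other probe sets. Above the limit there were 26 further probe sets for 19 members. All 26 were lower in supplemented mutants than in supplemented wild types, with a median of -0.44. In the fit without the signal limit 5 of them passed the unadjusted limit, all lower, where 1753 of all 45037 probe sets did in either direction. That background includes the dim probe sets. Over the 22519 probe sets above the limit, fitted alone, 2.30% were lower at the unadjusted limit. All 26 were also lower after folinic acid in the mutants (median -0.29), and 14 of 26 were lower for the genotype under saline. The probe sets of a gene were read from the same RNA and are not replicates.

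Other genes of S phase were followed through a list of 56, of which 43 were measured. They held the remaining ORC and polymerase subunits, fork factors, histone chaperones and repair genes. After folinic acid 32 of the 43 were lower in the mutants (median -0.17), with 5 lower and 1 higher at the unadjusted limit, where 2.30% and 1.51% of all probe sets were, and limma called 0. E2f7, a repressor of E2F targets, read 214 ± 61.2 (SD, n = 3) in supplemented wild types and 111 ± 31.9 (SD, n = 4) in supplemented mutants, a difference of -0.96 ± 0.37. Brca1, a repair gene of S and G2 phase, differed by -0.94 ± 0.37. Of 36 measured mitosis and spindle genes 35 were lower (median -0.65), 9 of them at the unadjusted limit, where 2.30% of all probe sets were. The difference in their mean level, -0.63, was -0.37 without wild-type folinic acid replicate 3 and -0.42 without mutant folinic acid replicate 2. That level was -0.001, -0.16 and 0.70 in supplemented wild types and 0.06, -1.11, -0.36 and -0.40 in supplemented mutants, so the groups overlapped. Spc25, a kinetochore protein, read 791 ± 283 (SD, n = 3) and 356 ± 48.0 (SD, n = 4) in the same groups and differed by -1.10 ± 0.30. Prc1, which bundles the midzone spindle, differed by -0.89 ± 0.32.

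Mitosis genes spread further over the arrays than the replication genes. Their mean level ran from -1.11 in mutant folinic acid replicate 2 to 0.84 in mutant saline replicate 3, and from -0.67 to 0.84 within the 3 saline mutants. The 42 replication genes ran from -0.47 to 0.43 over all arrays. Of 25 measured genes of G1 control and cell cycle inhibition 11 were lower and 14 higher in the supplemented mutants (median 0.02). Cdkn1a, which encodes the inhibitor p21, was at 0.59 ± 0.19, and Cebpb, a factor of decidual differentiation, at 0.75 ± 0.25. Of 15 measured genes of the folate and thymidylate cycle 13 were lower (median -0.26). At the unadjusted limit 0 were lower and 0 higher, where 2.30% and 1.51% of all probe sets were. Their mean level was -0.44, 0.09, -0.04 and -0.43 in supplemented mutants and 0.17, 0.13 and 0.06 in supplemented wild types, with overlap. Mtr, methionine synthase, was at -0.58 ± 0.28 and Mthfd2, a mitochondrial folate enzyme, at -1.23 ± 0.60. Limma called 0 genes of these lists in that comparison.

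Levels of other cell types' markers differed between groups, and their part in the replication genes was not tested. The summed signal of 8 macrophage markers ran from 10514 to 60427 in supplemented mutants and from 13914 to 17961 in supplemented wild types, and all 8 had higher means in the former (median log2 difference 0.43). Their mean centred log2 level was 1.78, -0.59, -0.13 and 0.26 in the supplemented mutants and -0.32, -0.13 and 0.09 in the supplemented wild types. The groups overlapped, and the difference of 0.46 between their means was -0.03 without mutant folinic acid replicate 1. All 3 measured adipocyte markers had lower means in the supplemented mutants (median -1.15), with levels of -1.25, 0.57, 0.32 and -0.76 against 0.63, -0.25 and 2.48. These groups overlapped too, and the difference of -1.24 between their means was -0.47 without wild-type folinic acid replicate 3. Also lower was Alas2, the 1 measured red blood cell marker (-0.84). Of 11 stromal markers 10 had lower means in supplemented than in saline mutants, and their sum ran from 138806 to 145858 against 152713 to 184218. In wild type 8 of the 11 were lower after folinic acid, with sums of 130356 to 140783 against 159076 to 177168. On the mean centred log2 level both comparisons overlapped. It was -0.06, -0.24, -0.02 and -0.30 in supplemented against -0.03, 0.14 and 0.31 in saline mutants. In wild type it was 0.04, -0.08 and -0.24 after folinic acid against 0.17, 0.13, 0.005 and 0.17 after saline. Between supplemented genotypes 6 of the 11 were higher and 5 lower in mutants (median 0.002). Of 8 smooth muscle markers 7 were higher there (median 0.14). The 10 measured epithelial markers split into 5 higher and 5 lower between supplemented genotypes, with sums of 28322 to 47903 in mutants and 33409 to 50918 in wild types.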

How the data were processed

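RNA of 14 mouse uteri was measured on Affymetrix arrays, 1 sample per array. The deposited values are linear signal intensities that the authors computed with MAS5, per the submitters' processing notes, and every array had a trimmed mean of 500.0 (2% left out at each end). Signals were floored at 1, which touched 0.505% of values, and log2 transformed. Of 45037 non-control probe sets, the 22519 at or above the median mean signal (134) were fitted in limma 3.58.1 (R 4.3.3) with 4 group means and a variance trend. P-values are two-sided and adjusted by Benjamini-Hochberg over all 22519, with a threshold of 0.05. A positive value is mutant minus wild type or folinic acid minus saline, and a fold is 2 to the size of the log2 difference. A gene was read through the probe set of highest mean log2 signal that carries its symbol alone. Of the non-control probe sets 34945 had 1 symbol, 932 several and 9160 none, and signals of different probe sets were not compared.

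Values per array are given for, in each role, the measured member of highest mean signal and that of smallest p for the genotype after folinic acid, and for the 3 members of smallest p in each of the 5 comparisons. In the other lists the 2 genes of smallest p are named. The members, lists and rules were chosen with earlier results of these data known. Groups came from the labels, which call the replicates biological. Separate animals are not stated, so p-values measure the spread between these arrays. The number of arrays, 3 or 4 a group, limits the precision. Alternatives covered normalization, offset, filter, variance model, array weights, probe set choice, the actin ratio, arrays sharing a title number averaged, a replicate block and single arrays left out. Leaving out the highest and the lowest array together, and single arrays for the marker lists, was chosen after seeing the data. Scripts were tested on simulated data. The aligner and build do not apply to array signals; promoter windows came from RefSeq (GRCm38.p6).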

Additional observations from a re-analysis of the deposited data

Results flagged for a closer look

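The 20 members given by array, and the mean over the 42, were looked at in both groups of 4 arrays for 1 array far from the other 3. The gap test used passes by chance in about 1 of 20 such sets, and 3 of 42 sets passed it, all in wild-type uteri given saline. Orc1 read 75.8 in replicate 1, where the others read 153 to 174. Pold2 read 402 in replicate 3, where the others read 747 to 809. Rpa1 read 5365 in replicate 3, where the others read 4169 to 4263. Replicate 3 also had the highest actin 3-prime to 5-prime ratio (3.64) and the lowest array weight (0.345), and their part in these values was not tested.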

How the results depend on the processing

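No member passed the adjusted threshold in any comparison under any setting tried. More than 3 other probe sets did so in only 1 comparison, folinic acid in the mutants. There limma called 662 of 22519 without mutant folinic acid replicate 2. It called 651 without the highest and the lowest array of the list, and 103 with array weights. In every other comparison and setting it called at most 3. The median difference between genotypes under saline, 0.06, was -0.03 with array weights and ran from -0.05 to 0.25 with 1 array left out. No other median and no member's difference followed through the settings turned its sign. The count of members lower in mutants under saline moved most, from 16 to 10 after quantile normalization and 25 with array weights, and between 5 and 24 with 1 array left out. The count lower after folinic acid in wild type moved from 7 to 4 (of 30) among the upper 35 percent of probe sets by signal, to 13 with array weights, to 15 without the highest and the lowest array of the list, and between 3 and 15 with 1 array left out. Without those same arrays the median interaction was -0.25. The cause was not tested. With a replicate block the median difference between genotypes after folinic acid was -0.48, with 40 members lower and 17 at the unadjusted limit. Of all 22519 probe sets 789 were at that limit with the block, and it changed no call. The replicate numbers do not pair the arrays: 19 pairs of the same number correlated between -0.337 and 0.354 (median 0.0113), and 54 other pairs between -0.470 and 0.473. Signal over background limits Cdc6, E2f1 and E2f8.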
